A study of Rattus norvegicus with 12 samples.

Results

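The genes examined here encode proteins of the extracellular matrix that cardiac progenitor cells make themselves: fibronectin (Fn1), the chains of type I collagen (Col1a1 and Col1a2) and type III collagen (Col3a1), the matricellular proteins Sparc, Spp1 (osteopontin) and Postn (periostin), and the laminin chain Lamc1. They were chosen by name from a list of 10 matrix genes, and 8 of these had a row under their Entrez identifier among the 16924 genes counted. Thbs1 and Lamb1 were not analysed here. All 8 passed the filter on low counts, as did 10020 genes in all.

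The cells were rat cardiac progenitors grown from a single clone, and 12 RNA sequencing libraries fell into 4 groups of 3: cells on dishes coated with fibronectin, cells on dishes coated with laminin, cells on dishes with no coating, and cells in suspension. Before the experiment the line was grown in F12 medium with fetal bovine serum, leukemia inhibitory factor, basic fibroblast growth factor, erythropoietin and glutathione. Plated cells were kept for 2 h at low density in 0.1% fetal bovine serum, and the labels repeat this for the suspension libraries without saying how those cells were handled. Replicate numbers equal the labelled batch in every group, so each batch holds 1 library of every group.

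Fibronectin is secreted as a dimer and pulled by integrins into fibrils, on which collagens are then deposited. Laminins are trimers of an alpha, a beta and a gamma chain that build basement membranes. Matricellular proteins are secreted into the matrix but act mostly on how cells attach to it and signal. In the heart these proteins come largely from fibroblasts and other mesenchymal cells, and their genes are known to rise during development and scarring. The study, by its title, is about how the matrix sets the fate of these cells. The genes here show which matrix transcripts the cells themselves held at 2 h, and RNA counts do not measure protein.

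Total counts ran from 15875160 to 20852160 per library. The plated libraries of batch 3 stood apart from the rest: on the first principal component of log2 expression, which held 56.1% of the variance, they lay between 20.8 and 41.9, against -7.04 to 1.46 for the other plated libraries and -30.8 to -27.8 for suspension. Counts of matrix genes called are therefore given with and without batch 3. For single genes and for the other lists, results without batch 3 are given only in part. Among fixed markers, the mesenchymal genes Vim at 5130 CPM (counts scaled by the library total), S100a4 at 2170 CPM and Pdgfra at 330 CPM were abundant, whereas the fibroblast genes Tcf21 and Dpt were at 0 counts in all 12. The cardiac genes Nkx2-5, Isl1, Tbx20 and Myh7 were at 0 too, and a count of 0 does not exclude a very low level. The cardiac transcription factor Gata4 averaged 88.4 CPM and Kit, a receptor used to define such progenitors, 3.09 CPM, and of the 7 progenitor markers counted no other exceeded the 0.549 CPM of Hand2. The 7 mesenchymal markers summed to 7769 to 8338 CPM on fibronectin, 8030 to 8416 on laminin and 7570 to 8403 on uncoated dishes. In suspension the sum was 6495 to 7050 CPM. Vim and S100a4 carried most of these sums, and Thy1, another of the 7, averaged 0.0842 CPM. Summed levels of the 6 blood cell markers (with Tyrobp at 0 counts and Ptprc at 3) were 56.8 to 64.0, 58.6 to 65.7 and 51.3 to 60.3 CPM on the same surfaces, against 36.0 to 38.7 CPM in suspension. Cd14 carried most of that sum, at a mean of 49.2 CPM. The progenitor and smooth muscle sums overlapped between suspension and every surface. Those of the 7 cardiomyocyte markers were 4.49 to 6.17, 5.56 to 6.01 and 5.25 to 6.75 CPM, against 2.00 to 2.78 CPM, and those of the 5 endothelial markers counted 2.55 to 2.77, 1.84 to 2.64 and 2.20 to 2.30 CPM, against 1.39 to 1.51 CPM. Tnnt2, at a mean of 4.32 CPM, carried most of the cardiomyocyte sum. The part of these shifts in the results on matrix genes was not tested. In bulk RNA, fewer cells that make a transcript and less transcript per cell cannot be told apart.

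The promoters of 3 genes are shown, picked for their patterns in the data below from the 5 genes whose promoter was at hand. Sparc passed the test as higher on every surface with the batch as a block. It did not pass without the block, whether batch 3 was kept or left out. Spp1 and Postn passed no test, and both were low in the batch 3 libraries on laminin and on uncoated dishes. Sequences are those of RefSeq for the assembly GRCr8, from 250 bases before the start of the gene to 50 after it, 5′ to 3′ on the strand of the gene. Of the 8 genes, 5 matched the promoter table, and Fn1, Col1a1 and Col3a1 had no entry in it.
Sparc, GRCr8 chr10:40038767-40039066, minus strand: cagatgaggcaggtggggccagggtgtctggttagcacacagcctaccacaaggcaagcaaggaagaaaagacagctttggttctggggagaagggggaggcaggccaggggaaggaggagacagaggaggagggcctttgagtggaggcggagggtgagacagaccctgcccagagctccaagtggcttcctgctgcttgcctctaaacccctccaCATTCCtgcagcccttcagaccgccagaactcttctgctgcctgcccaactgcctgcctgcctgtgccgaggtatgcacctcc
Spp1, GRCr8 chr14:5619755-5620054, minus strand: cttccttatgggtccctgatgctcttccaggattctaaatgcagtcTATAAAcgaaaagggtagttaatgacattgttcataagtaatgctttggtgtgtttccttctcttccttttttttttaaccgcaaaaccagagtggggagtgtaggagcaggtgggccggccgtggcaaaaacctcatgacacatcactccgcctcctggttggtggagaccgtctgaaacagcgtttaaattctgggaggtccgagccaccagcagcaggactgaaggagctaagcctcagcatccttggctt
Postn, GRCr8 chr2:140677811-140678110, plus strand: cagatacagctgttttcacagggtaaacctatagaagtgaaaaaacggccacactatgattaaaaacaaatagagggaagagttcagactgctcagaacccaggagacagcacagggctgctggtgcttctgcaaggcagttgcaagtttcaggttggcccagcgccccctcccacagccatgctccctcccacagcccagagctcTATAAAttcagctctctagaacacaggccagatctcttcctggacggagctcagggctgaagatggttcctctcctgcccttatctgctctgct
Capitals mark every match, on either strand, to 7 motifs. GGAATG is bound by TEAD factors, the partners of YAP. TGANTCA is the AP-1 site, and TGACGTCA the response element of cyclic AMP. The others are the CCAAT box, the GC box with the letters GGGCGG, the TATA box with the letters TATAAA, and the CArG box bound by SRF. The Sparc window held GGAATG on the opposite strand at positions -33 to -28 from the start. GGAATG occurred in 14.2% of the 33469 promoter windows of the table and in 2 of the 5 matched here, Sparc and Lamc1. TATAAA lay at positions -204 to -199 in Spp1, -44 to -39 in Postn and -170 to -165 in Col1a2. Thus 3 of 5 windows held these letters at any position, against 14.2% of all. The 5 windows held no AP-1, cyclic AMP response element or CArG match, motifs found in 7.33%, 1.83% and 1.64% of all windows. CCAAT was found in Col1a2 (37.5% of all windows) and the GC box in Lamc1 (33.1%), where 1 of 5 GC box matches overlaps the TEAD match. These matches describe letters in the windows and not binding.

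The 8 matrix genes together took 1.03% ± 0.0679 of a library's counts on fibronectin, 0.951% ± 0.0657 on laminin and 1.05% ± 0.0446 on uncoated dishes, against 1.12% ± 0.0798 in suspension (SD, n = 3 each). Within 2 h of plating, 1 of them passed the test against suspension in the fit without the batch: Fn1 was lower on laminin. With the batch as a block, which pairs the libraries, 1 passed on fibronectin, 3 on laminin and 1 on uncoated dishes. These were Sparc, higher on each surface, and Fn1 and Col1a1, lower on laminin. Of all genes the block called 28.7%, 43.2% and 38.8% in these comparisons. None of the 8 passed between any 2 surfaces in either fit. Differences were tested with edgeR's quasi-likelihood test on all 12 libraries, with p-values adjusted by the Benjamini-Hochberg method over all 10020 genes and a threshold of 0.05, and changes are log2 fold changes ± SE.

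**Figure D1:**
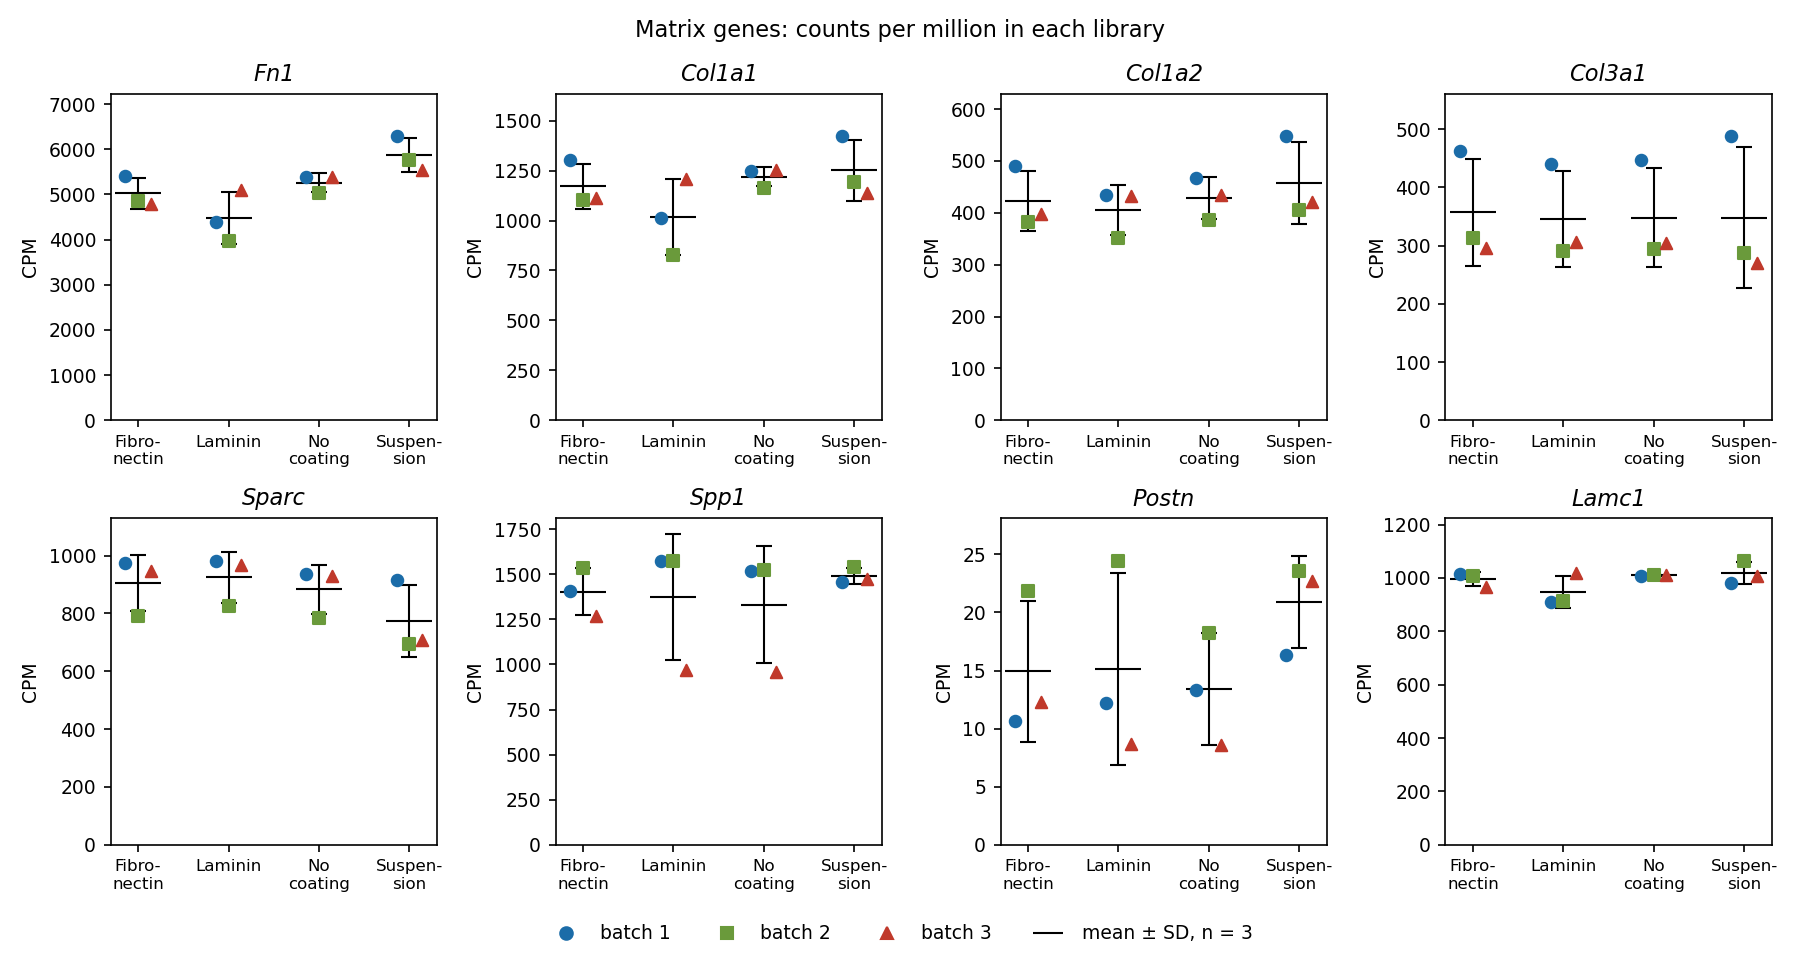
CPM of the 8 matrix genes (y axis, linear from 0) in each of the 12 libraries, by group (x axis). Symbols and colours mark the batch, and the bar and whiskers are the mean ± SD of 3 libraries. Fn1 lies below its suspension values on all 3 surfaces, Col3a1 is high in batch 1 of every group, and Spp1 is low in batch 3 on laminin and on uncoated dishes.

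Fn1 (Entrez 25661) had 5408, 4867 and 4797 CPM in replicates 1, 2 and 3 on fibronectin. The laminin libraries had 4400, 3960 and 5097 CPM. Uncoated dishes gave 5379, 5029 and 5380 CPM, against 6293, 5765 and 5553 CPM in suspension. Each of the 9 plated libraries was thus below each of the 3 suspension libraries, and the values of the 3 surfaces overlapped with each other. Such separation from suspension held for 1 of the 8 matrix genes on each surface, against 40.6% of all genes tested on fibronectin, 44.9% on laminin and 41.1% on uncoated dishes.

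On laminin Fn1 fell by 0.39 ± 0.09 on the log2 scale, a fold of 0.765 relative to suspension (edgeR, Benjamini-Hochberg adjusted p = 0.0166). That was 1 of 8 matrix genes called, and lower, on laminin, where 19% of all genes were called and 6.96% were called lower. The difference was -0.19 ± 0.09 on fibronectin (edgeR, adjusted p = 0.219) and -0.14 ± 0.09 on uncoated dishes (edgeR, adjusted p = 0.305), and neither passed. Within batches 1, 2 and 3 the log2 ratio of CPM was -0.52, -0.54 and -0.12 on laminin. On fibronectin the same ratios were -0.22, -0.24 and -0.21, and on uncoated dishes they were -0.23, -0.20 and -0.05. All 9 ratios were therefore below 0, with the ones closest to 0 in batch 3 on laminin and on uncoated dishes.

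Without batch 3 the fall of Fn1 on laminin was -0.51 ± 0.09 (edgeR, adjusted p = 0.0065), and with the batch as a block it was -0.39 (edgeR, adjusted p = 0.00488). The call ended when laminin replicate 2, suspension replicate 1 or suspension replicate 2 was left out, with adjusted p (edgeR) of 0.0545, 0.0541 and 0.0519 and log2 changes of -0.31, -0.35 and -0.39. Fn1 varied with Col1a1 over the 12 libraries (r = 0.917 of log2 CPM), which share batches and groups. Asked for any difference among the 4 groups, Fn1 did not pass (edgeR, adjusted p = 0.0819). It passed with the block (edgeR, adjusted p = 0.0246), which called 31.8% of all genes, and without batch 3 (edgeR, adjusted p = 0.0309), which called 9.41%. With neither, this test called 0 of the 8 matrix genes and 9.67% of all genes. At an unadjusted p under 0.05 the count of matrix genes was 1, against 2584 of all 10020, and DESeq2 called 1, against 1671 of all genes. Both times the matrix gene was Fn1.

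The order of Fn1 means placed laminin lowest at 4486 ± 573 CPM, then fibronectin at 5024 ± 335, uncoated dishes at 5263 ± 202 and suspension at 5870 ± 381 CPM (SD, n = 3). No neighbours in this order passed the test against each other, although the suspension libraries did not overlap with those on uncoated dishes. Fibronectin over laminin was 0.20 on the log2 scale, with a 95% interval from -0.00 to 0.40 (edgeR, adjusted p = 0.9998), and fibronectin over no coating was -0.05, with an interval from -0.25 to 0.15 (edgeR, adjusted p = 0.99998). A difference in the cells' own Fn1 transcript between fibronectin-coated and uncoated dishes was thus not detectable with 3 libraries a group.

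Type I collagen is a trimer of Col1a1 and Col1a2 chains, and type III collagen a trimer of Col3a1 chains. Col1a1 (29393) had 1302, 1101 and 1111 CPM on fibronectin. On laminin it had 1012, 828 and 1208 CPM. Uncoated dishes gave 1246, 1163 and 1252 CPM, against 1423, 1194 and 1136 CPM in suspension. Replicates 1 and 2 on laminin were lower than all 3 suspension libraries, and replicate 3 lay inside their range. Relative to suspension, Col1a1 on laminin differed by -0.30 ± 0.13 and did not pass (edgeR, adjusted p = 0.123), and it passed as lower with the batch as a block (-0.30; edgeR, adjusted p = 0.0444) and without batch 3 (-0.49 ± 0.13; edgeR, adjusted p = 0.0294). Within batches the log2 ratio on laminin was -0.49, -0.53 and 0.09. On fibronectin Col1a1 differed by -0.06 ± 0.13 and on uncoated dishes by -0.02 ± 0.13 (edgeR, adjusted p = 0.806 and 0.937).

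Col1a2 (84352) had 489, 382 and 398 CPM on fibronectin. It had 435, 350 and 433 CPM on laminin. On uncoated dishes the values were 467, 387 and 433 CPM, against 548, 404 and 420 CPM in suspension. All 4 groups overlapped, and batch 1 was the highest in each. The differences from suspension were -0.07 ± 0.14 on fibronectin, -0.17 ± 0.14 on laminin and -0.07 ± 0.14 on uncoated dishes, and none passed (edgeR, adjusted p = 0.770, 0.409 and 0.740). With the batch as a block they were -0.07, -0.16 and -0.07, each ± 0.06, and again none passed (edgeR, adjusted p = 0.406, 0.0632 and 0.431).

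Col3a1 (84032) had 463, 313 and 297 CPM on fibronectin. The laminin libraries had 440, 291 and 307 CPM. Uncoated dishes gave 447, 294 and 304 CPM, against 488, 287 and 269 CPM in suspension. Batch 1 was high and batches 2 and 3 were low in every group, and the groups overlapped throughout. Of the spread of log2 CPM over the 12 libraries, 97% lay between batches and 1.33% between groups. Its group means differed by at most 1.03-fold and its batch means by 1.56-fold. The largest difference from suspension, 0.08 ± 0.28 on fibronectin, did not pass (edgeR, adjusted p = 0.867). With the batch as a block it was 0.10 ± 0.05 and did not pass either (edgeR, adjusted p = 0.202).

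Sparc is a collagen-binding matricellular protein that is known to counter cell spreading. Sparc (24791) had 974, 793 and 947 CPM on fibronectin. On laminin the libraries had 983, 824 and 969 CPM. On uncoated dishes they had 936, 786 and 928 CPM, against 916, 695 and 707 CPM in suspension. Batch 2 was the lowest in every group, and the groups overlapped because suspension replicate 1 lay within the range of the plated libraries. Without the batch in the model, differences from suspension were 0.27 ± 0.12 on fibronectin, 0.26 ± 0.12 on laminin and 0.21 ± 0.12 on uncoated dishes, and none passed (edgeR, adjusted p = 0.195, 0.151 and 0.251). With the batch as a block Sparc rose on all 3 surfaces, by 0.27, 0.27 and 0.22 (edgeR, adjusted p = 0.0116, 0.00759 and 0.0208).

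Within batches 1, 2 and 3 the log2 ratio of Sparc over suspension was 0.09, 0.19 and 0.42 on fibronectin. It was 0.10, 0.25 and 0.45 on laminin and 0.03, 0.18 and 0.39 on uncoated dishes. All 9 ratios were above 0, and batch 3 gave the highest on each surface. Without batch 3, in a fit that also had no block, the differences were 0.18 ± 0.16, 0.18 ± 0.16 and 0.13 ± 0.16. They did not pass (edgeR, adjusted p = 0.509, 0.443 and 0.625). Whether Sparc passes with the block and without batch 3 was not tested. The block takes the shift of a batch as equal in all groups, whereas replicate 3 of Sparc stood 0.11 above the mean of replicates 1 and 2 on fibronectin, 0.11 above it on laminin and 0.11 above it on uncoated dishes, against -0.17 in suspension, all on the log2 scale.

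**Figure D2:**
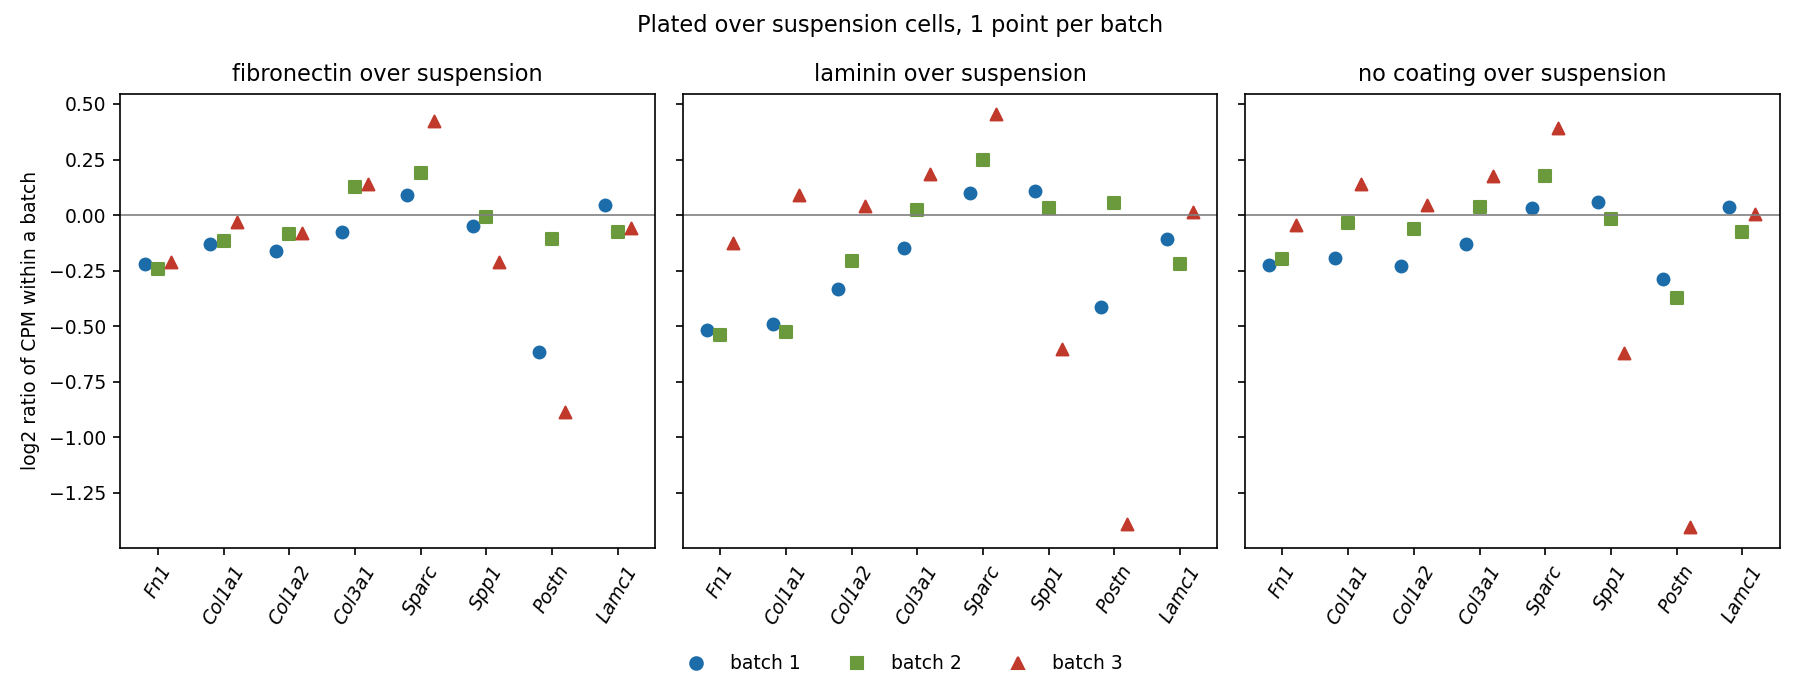
Log2 ratio of CPM of plated over suspension cells within each batch (y axis) for the 8 matrix genes (x axis), 1 panel per surface and 1 point per batch. All 9 points of Fn1 lie below 0 and all 9 of Sparc above it, while Spp1 and Postn fall far below 0 in batch 3 on laminin and on uncoated dishes.

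Spp1 is a phosphoprotein of the matrix that binds integrins through an arginine-glycine-aspartate motif, as fibronectin does. Spp1 (25353) had 1408, 1532 and 1271 CPM on fibronectin. On laminin it had 1573, 1576 and 968 CPM. Uncoated dishes gave 1517, 1521 and 957 CPM, against 1458, 1542 and 1473 CPM in suspension. The plated libraries of replicates 1 and 2 lay within or near the range of suspension, and all 3 plated libraries of replicate 3 lay below it. Differences from suspension were -0.05 ± 0.22 on fibronectin, -0.11 ± 0.22 on laminin and -0.14 ± 0.22 on uncoated dishes (edgeR, adjusted p = 0.897, 0.725 and 0.672). Replicate 3 differed from the mean of replicates 1 and 2 by -0.21 on fibronectin, -0.70 on laminin and -0.67 on uncoated dishes, against -0.03 in suspension, on the log2 scale. Without batch 3 the differences from suspension were 0.01, 0.08 and 0.05 on the 3 surfaces, and none passed (edgeR, adjusted p = 0.931, 0.426 and 0.677).

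Postn binds collagen and integrins and is known as a gene of activated fibroblasts. It was the only one of the 8 with low counts, 142 to 510 per library. Postn (361945) had 10.6, 21.9 and 12.3 CPM on fibronectin. The laminin libraries had 12.2, 24.5 and 8.67 CPM. Those on uncoated dishes had 13.34, 18.2 and 8.58 CPM, against 16.3, 23.6 and 22.7 CPM in suspension. Replicate 2 was the highest in every group, and the lowest values were replicate 3 on laminin and on uncoated dishes and replicate 1 on fibronectin. Differences from suspension of -0.45 ± 0.41, -0.45 ± 0.40 and -0.62 ± 0.41 on fibronectin, laminin and uncoated dishes did not pass (edgeR, adjusted p = 0.496, 0.434 and 0.305). Their 95% intervals were wide and ran as low as -1.52 and as high as 0.44. With the batch as a block the differences were -0.52, -0.56 and -0.67 and did not pass (edgeR, adjusted p = 0.131, 0.0877 and 0.0553). Within batch 3 alone the log2 ratios were -0.89, -1.39 and -1.40. They were -0.62, -0.41 and -0.29 in batch 1 and -0.11, 0.05 and -0.37 in batch 2. Without batch 3 the differences from suspension were -0.26, -0.11 and -0.32 and did not pass (edgeR, adjusted p = 0.718, 0.875 and 0.636).

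Lamc1 encodes the gamma chain shared by most laminins of basement membranes. Lamc1 (117036) had 1014, 1009 and 966 CPM on fibronectin. It had 911, 914 and 1018 CPM on laminin. Uncoated dishes gave 1006, 1010 and 1012 CPM, against 982, 1065 and 1007 CPM in suspension. These values overlapped, with replicates 1 and 2 on laminin the lowest of the 12. The difference of laminin-coated dishes from suspension was -0.10 ± 0.07, with a 95% interval from -0.25 to 0.04 (edgeR, adjusted p = 0.272). On fibronectin and on uncoated dishes it was 0.00 and 0.01, each ± 0.07, with intervals from -0.14 to 0.15 (edgeR, adjusted p = 0.9753 and 0.963). Of the 8 genes Lamc1 thus had the narrowest interval.

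**Figure D3:**
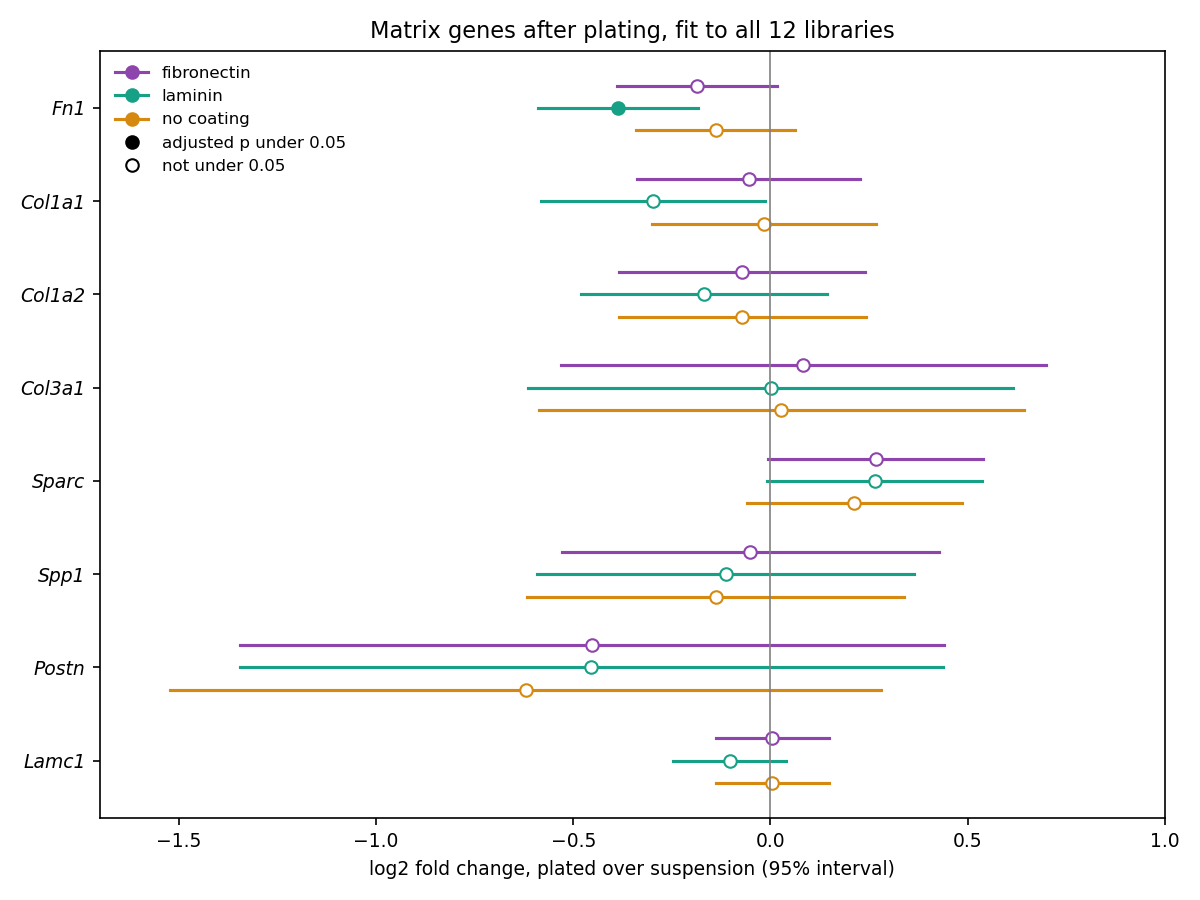
Log2 fold change of the 8 matrix genes for each surface over suspension (x axis), with 95% intervals from the fit to all 12 libraries. Filled points have an adjusted p under 0.05. The only filled point is Fn1 on laminin at -0.39, and the widest intervals are those of Postn.

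Compared with suspension, 0 of 8 matrix genes were called on fibronectin and 0 on uncoated dishes, where 9.67% and 12.6% of all genes were called. At an unadjusted p under 0.05 the counts of matrix genes were 0 on fibronectin, 2 on laminin (Fn1 and Col1a1) and 0 on uncoated dishes, against 2697, 3577 and 3201 of all 10020 genes. DESeq2 called 0, 1 and 0 of them, against 1319, 2222 and 1659 of all genes. The median change of the 8 was -0.05 on fibronectin, -0.14 on laminin and -0.04 on uncoated dishes, against 0.00, -0.01 and 0.00 over all genes tested. With the batch as a block 1 gene was higher on fibronectin, Sparc, where 28.7% of all genes were called and 16.6% were higher. Sparc was also the 1 gene higher on uncoated dishes, where 38.8% were called and 20.1% were higher. On laminin the block gave 1 higher (Sparc) and 2 lower (Fn1 and Col1a1), where 43.2% were called, 22.4% higher and 20.8% lower. Without batch 3 there were 2 lower on laminin, Fn1 and Col1a1, where 18.9% were called and 10.3% were lower. On fibronectin and on uncoated dishes 0 of the 8 were then called, against 929 and 1203 of all 10045 genes tested. The 3 comparisons share the suspension libraries. Over all genes, calls were 662 higher and 307 lower on fibronectin, 1208 and 697 on laminin, and 850 and 411 on uncoated dishes. With library size as the only scaling they were 384 and 329, 802 and 661, and 496 and 417, and without batch 3 they were 432 and 497, 859 and 1035, and 519 and 684. The calls on the 8 matrix genes were the same under the library size scaling.

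Between surfaces 0 of 8 were called in any of 3 comparisons by edgeR, with or without the block and without batch 3, and by DESeq2. Of all genes 0.18% were called for fibronectin over no coating, 0.15% for fibronectin over laminin and 0% for laminin over no coating. With the block these shares were 0.469%, 0.409% and 0%, and without batch 3 they were 0.11%, 0.119% and 0%. The unadjusted p was under 0.05 for 0, 0 and 1 of the matrix genes, against 344, 300 and 156 of all 10020, and DESeq2 called 53, 45 and 0 of all genes. That 1 was Fn1, lower on laminin than on uncoated dishes by -0.25 ± 0.09, with a 95% interval from -0.45 to -0.05 (edgeR, adjusted p = 0.9997). For fibronectin over laminin the fitted differences ran from 0.00 for Postn and Sparc to 0.24 ± 0.13 for Col1a1, and none passed. Within batches the log2 ratio of fibronectin over laminin was 0.30, 0.30 and -0.09 for Fn1 and 0.36, 0.41 and -0.12 for Col1a1, so both had opposite signs in batch 3 and in the other batches. Col1a2, Col3a1 and Lamc1 were likewise above 0 in batches 1 and 2 and below it in batch 3. Spp1 and Postn showed the reverse, and Sparc was below 0 in every batch.

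The spread over the 12 libraries was split into shares between groups and between batches, as a description. Both shares are above 0 even for a gene without any effect, and shares over all genes are not given here. The share between groups was 70% for Fn1, 44.3% for Col1a1, 42.4% for Lamc1 and 40.8% for Sparc. It was 23.4% for Postn, 12.5% for Col1a2, 7.32% for Spp1 and 1.33% for Col3a1. The share between batches exceeded the share between groups for Col1a2, Col3a1, Sparc, Spp1 and Postn, at 76.5%, 97%, 50.4%, 61.3% and 54.1%. At the lowest count of Fn1, 76569, counting error amounts to 0.361%, whereas the coefficient of variation between replicates ran from 3.84% to 12.8%. At the lowest count of Postn it amounts to 8.39%, against 19% to 54.8% between replicates. For Lamc1 it amounts to 0.794%, and the variation between replicates ran from 0.265% on uncoated dishes to 6.41% on laminin.

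The genes most like a member over the 12 libraries were sought for the 4 with the smallest p for any difference among the groups, among 8670 genes, by Pearson correlation of log2 CPM. These libraries share batches and suspension samples. Closest to Fn1 were Cit, a kinase of cytokinesis (r = 0.949, Spearman's rho = 0.895), and Trrap, a scaffold of histone acetyltransferase complexes (r = 0.945, rho = 0.951). Closest to Col1a1 were Kirrel1, a cell adhesion protein (r = 0.952, rho = 0.930), and Zdhhc1 (r = 0.923, rho = 0.720). Sparc was followed most closely by Gas6, a secreted ligand of TAM receptors (r = 0.982, rho = 0.993), and Maged1 (r = 0.976, rho = 0.958). For Lamc1 the closest were Zbtb39 (r = 0.868, rho = 0.811) and the tyrosine kinase gene Abl2 (r = 0.828, rho = 0.825).

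Other genes of the matrix were followed in 7 lists that hold 113 genes, of which 73 were tested. Their counts stand beside 9.67%, 19% and 12.6% of all genes called against suspension on fibronectin, laminin and uncoated dishes, and 28.7%, 43.2% and 38.8% with the block. Collagen chains other than the members gave 2 of 10 higher and 0 lower on fibronectin, 2 higher and 1 lower on laminin, and 2 higher and 0 lower on uncoated dishes. Col18a1, a basement membrane collagen, rose by 0.76 ± 0.10, 0.70 ± 0.10 and 0.84 ± 0.10 on fibronectin, laminin and uncoated dishes, to 37.5 ± 1.83, 36.95 ± 2.99 and 40.35 ± 2.91 CPM, against 22.8 ± 2.81 CPM in suspension (SD, n = 3). Col6a2, a chain of the beaded-filament type VI collagen, rose by 0.38 ± 0.06, 0.42 ± 0.06 and 0.47 ± 0.06. Col5a1, a fibril-forming chain that coassembles with type I collagen, fell by 0.42 ± 0.10 on laminin, to 571 ± 38.5 CPM, against 763 ± 110 CPM in suspension (edgeR, adjusted p = 0.0179). That call ended without laminin replicate 2 or suspension replicate 1. With the block Col5a1 also passed as lower on fibronectin (edgeR, adjusted p = 0.024). Col5a3 differed by 0.68 ± 0.24, 0.31 ± 0.24 and 0.65 ± 0.24 without passing, and passed as higher on each surface with the block (edgeR, adjusted p = 0.000968, 0.0157 and 0.0011). With the block the list counted 4 higher and 1 lower on fibronectin, 3 and 2 on laminin, and 4 and 2 on uncoated dishes.

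Laminin chains other than Lamc1 and further basement membrane genes had 1 of 7 called, on laminin. This was Lama1, an alpha chain, at 1.27 ± 0.460 CPM on laminin, against 0.492 ± 0.124 CPM in suspension, a rise of 1.35 ± 0.35 (edgeR, adjusted p = 0.0237). The call of this gene of very low counts ended without laminin replicate 2 or 3, suspension replicate 1 or 3, or batch 3. Lamb2 differed by -0.15, -0.26 and -0.15 on fibronectin, laminin and uncoated dishes, Lamb3 by -0.14, -0.01 and 0.07, and the linker gene Nid2 by 0.21, 0.11 and 0.19, none of which passed without the block. With the block 1 gene was higher on fibronectin, 1 higher and 2 lower on laminin, and 2 higher and 1 lower on uncoated dishes. Lower on laminin were Lamb2 (edgeR, adjusted p = 0.0426) and the alpha chain Lama5 (-0.34; edgeR, adjusted p = 0.0345). Lama5 averaged 303 ± 98.6 CPM on laminin, against 376 ± 38.2 CPM in suspension, and did not pass without the block (edgeR, adjusted p = 0.243). Without batch 3 the list had 0 higher and 1 lower on laminin, Lama5 (-0.53; edgeR, adjusted p = 0.0101).

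Among genes of elastic fibres and latent TGF-beta binding, 1 of 7 was lower on each surface. Ltbp1, which holds latent TGF-beta in the matrix and needs fibronectin for its own deposition, fell by 0.30 ± 0.05 on fibronectin, 0.40 ± 0.05 on laminin and 0.29 ± 0.05 on uncoated dishes. It averaged 716 ± 23.4, 685 ± 42.2 and 729 ± 23.9 CPM there, against 906 ± 3.39 CPM in suspension (SD, n = 3). Its calls held when any library was left out. The fibrillin gene Fbn1 differed by 0.44 ± 0.13 on fibronectin without passing (edgeR, adjusted p = 0.0570) and passed as higher with the block there and on uncoated dishes (edgeR, adjusted p = 0.00734 and 0.0097). Ltbp2 differed by -0.28 ± 0.09 on laminin (edgeR, adjusted p = 0.0513) and passed as lower with the block and without batch 3 (edgeR, adjusted p = 0.0117 and 0.0163), and Efemp2 did not pass on any surface. Ltbp2 also passed as lower on fibronectin with the block (edgeR, adjusted p = 0.0391). With the block the list had 1 higher and 2 lower on fibronectin, 0 and 2 on laminin, and 1 and 1 on uncoated dishes.

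Other matricellular and adhesive glycoproteins had 1 of 7 higher on fibronectin, 1 lower on laminin and 0 called on uncoated dishes. Smoc1, a relative of Sparc, rose by 0.34 ± 0.09 on fibronectin (edgeR, adjusted p = 0.0359), a call that ended without batch 3 and without any of fibronectin replicates 1 to 3, no coating replicate 2, or suspension replicate 2 or 3. Ccn4 fell by 0.93 ± 0.27 on laminin, to 27.5 ± 7.63 CPM, against 52.7 ± 1.37 CPM in suspension (edgeR, adjusted p = 0.0351), a call that ended without laminin replicate 2 or 3 or any suspension replicate. With the block the list had 1 higher and 1 lower on every surface, Smoc1 higher (edgeR, adjusted p = 0.00599, 0.0119 and 0.00837) and Ccn4 lower (edgeR, adjusted p = 0.0423, 0.00129 and 0.00309). Without batch 3 Ccn4 was also lower on uncoated dishes (edgeR, adjusted p = 0.0142). Ecm1 and Thbs2 did not pass. Of 5 proteoglycan genes, Fmod rose by 0.33 ± 0.09 on uncoated dishes (edgeR, adjusted p = 0.0311), which ended without any of the no coating replicates or without suspension replicate 1 or 3, with no filter on low counts and in a fit to the groups compared alone. With the block Fmod passed as higher on all 3 surfaces (edgeR, adjusted p = 0.0186, 0.00689 and 0.00289). The block gave 1 higher and 1 lower on fibronectin and on laminin, and 1 higher and 2 lower on uncoated dishes. Vcan, the large proteoglycan versican, stood at 361 ± 101 CPM on fibronectin, 358 ± 102 on laminin and 347 ± 145 on uncoated dishes, against 540 ± 18.7 CPM in suspension. It passed as lower only with the block (edgeR, adjusted p = 0.0390, 0.0211 and 0.0176). Acan and Ogn did not pass on any surface, though Acan passed as lower on laminin without batch 3 (edgeR, adjusted p = 0.0447) and Ogn, at under 1 CPM, as lower on uncoated dishes with the block (edgeR, adjusted p = 0.0353).

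Enzymes and chaperones of collagen folding, cross-linking and processing gave 2 of 19 higher on fibronectin, 4 on laminin and 2 on uncoated dishes, with 0 lower. Tgm2, a transglutaminase that cross-links fibronectin, rose by 0.65 ± 0.08, 0.96 ± 0.08 and 0.95 ± 0.08, to 23.7 ± 0.929, 30.1 ± 1.62 and 29.6 ± 2.37 CPM, against 15.5 ± 0.923 CPM in suspension. P4hb, the disulfide isomerase that is also a subunit of prolyl hydroxylase, rose by 0.23 ± 0.06, 0.30 ± 0.06 and 0.27 ± 0.06. Its call on fibronectin ended without batch 3, fibronectin replicate 1 or 3, no coating replicate 2 or any suspension replicate, and its call on uncoated dishes without no coating replicate 3 or suspension replicate 3. Crtap and P3h1, partners in prolyl hydroxylation of collagen, rose on laminin by 0.33 ± 0.10 and 0.24 ± 0.07 (edgeR, adjusted p = 0.0413 and 0.0454). Both calls ended when any single suspension or fibronectin replicate, laminin replicate 2 or 3, or no coating replicate 2 was left out, and that of P3h1 also without no coating replicate 1 or batch 3. With library size as the only scaling the calls of Crtap, P3h1, Smoc1 and Itga5 on laminin or fibronectin ended, as did those of P4hb on fibronectin and on uncoated dishes. With the block P3h1 also passed as higher on fibronectin and on uncoated dishes (edgeR, adjusted p = 0.0346 and 0.0105), and Crtap on uncoated dishes (edgeR, adjusted p = 0.0221). The list then had 4 of 19 higher and 0 lower on fibronectin, 5 and 3 on laminin, and 5 and 3 on uncoated dishes, beside 28.7%, 43.2% and 38.8% of all genes called.

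Receptors of the members had 2 of 18 higher on fibronectin, 3 on laminin and 3 on uncoated dishes, with 0 lower. With the block these counts were 3 higher and 2 lower, 4 and 4, and 4 and 4. Sdc4, a syndecan that binds fibronectin together with integrins at focal adhesions, rose by 1.85 ± 0.14, 1.86 ± 0.14 and 1.92 ± 0.14, to 1373 ± 155, 1416 ± 207 and 1456 ± 176 CPM, against 391 ± 16.2 CPM in suspension. Sdc1, another syndecan, rose by 0.45 ± 0.09, 0.61 ± 0.09 and 0.62 ± 0.09. Itga5, the alpha chain of the main fibronectin receptor, rose by 0.34 ± 0.10 on laminin and 0.49 ± 0.10 on uncoated dishes and differed by 0.28 ± 0.10 on fibronectin without passing (edgeR, adjusted p = 0.0319, 0.00914 and 0.0939). The call on laminin ended without laminin replicate 2 or 3 or any suspension replicate. On fibronectin Itga5 passed as higher with the block (edgeR, adjusted p = 0.0149). Itga6, an alpha chain of laminin receptors, differed by -0.37, -0.41 and -0.39, each ± 0.14, without passing. It passed as lower with the block (edgeR, adjusted p = 0.0199, 0.0100 and 0.0140) and when suspension replicate 1 was left out.

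**Figure D4:**
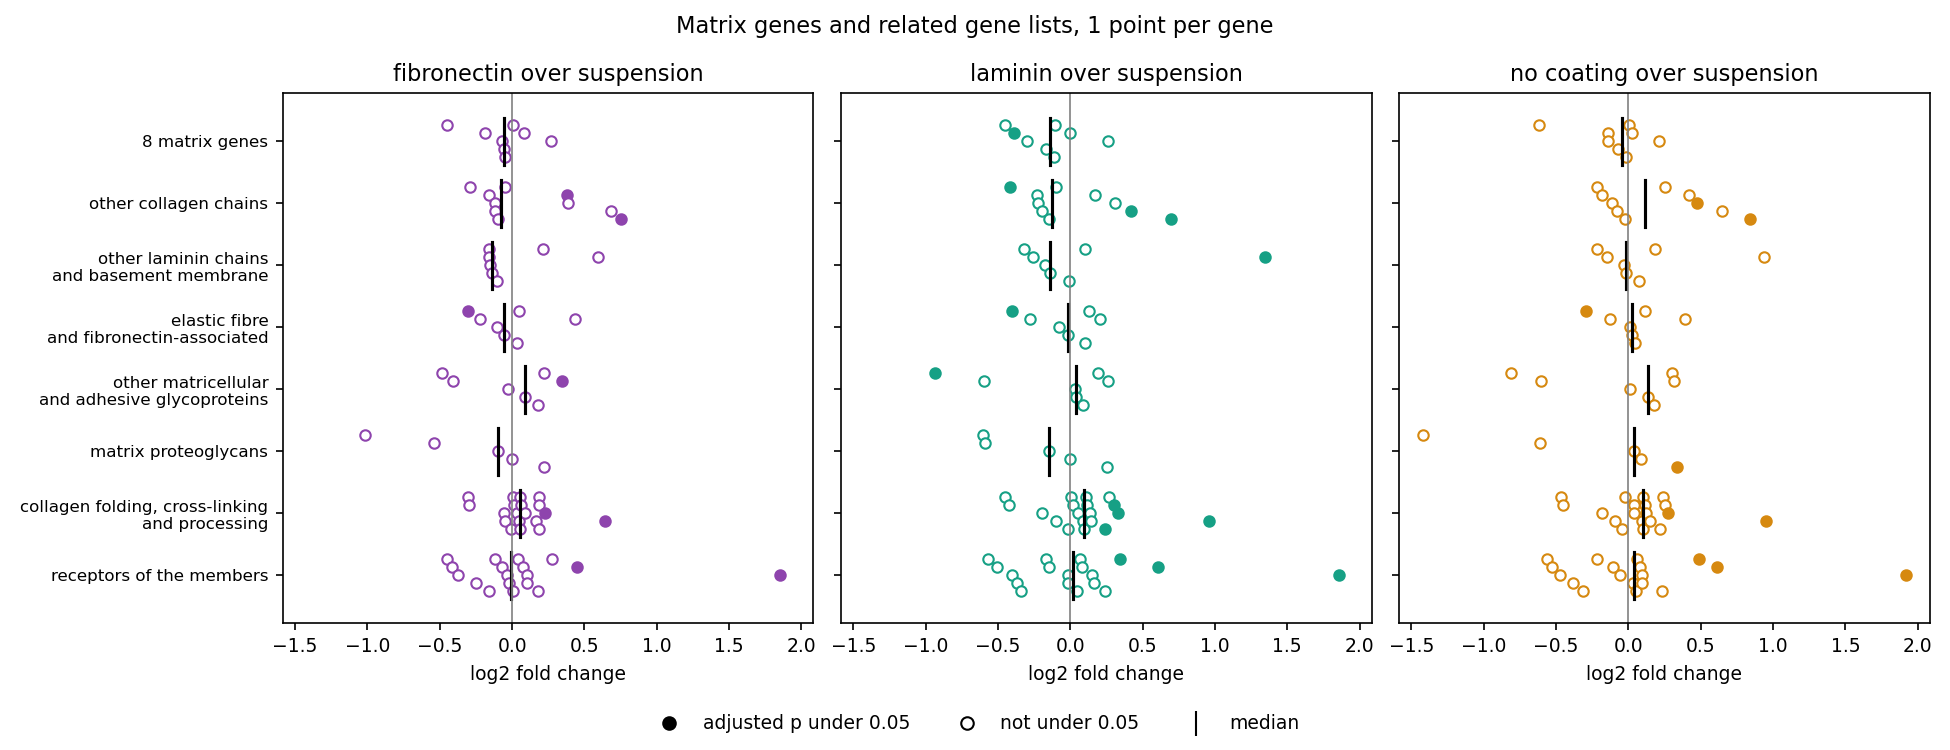
Log2 fold change over suspension (x axis) of the 8 matrix genes and of the tested genes of 7 related lists (rows), 1 panel per surface and 1 point per gene. Filled points have an adjusted p under 0.05 and the black line is the median of a row. Most points lie close to 0, and the far right point among the receptors is Sdc4, at 1.85 to 1.92.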

How the data were processed

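Deposited values are raw read counts per Entrez gene, 1 file per library, per the file headers; whole numbers summing to 15875160 to 20852160. The submitters' processing notes name rn4. Which aligner, counter, annotation or strand setting was used is not given in the sources used here, which leaves genes that overlap or have close copies uncertain. Symbols of 16761 of 16924 identifiers came from the RefSeq table of GRCr8.

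Genes were kept by filterByExpr (10020) and tested with edgeR 4.0.16 in R 4.3.3 (TMM factors 0.962 to 1.03, a means model of 4 groups, 8 residual degrees of freedom). Log2 CPM for correlations and shares of spread used a prior count of 2. Replicates are labelled biological triplicates, and since the cells are 1 clone, p-values without the block measure the spread between its batches. With the block they measure the spread left after a batch shift taken as equal in all groups. The labelled batch pairs the samples: across genes, deviations from group means had a median correlation of 0.409 over 18 same-batch pairs, the lowest 0.036. The median was -0.124 for 36 others, which is not separate support, since the deviations sum to 0 within a group. A second fit has the batch as a block (6 residual degrees of freedom). Alternatives were library size only, DESeq2 1.42.0, no filter, only the groups compared, no batch 3, and each library left out. None of these alternatives had the block. The test was tried on simulated data.

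Members, lists and alternatives were chosen with earlier results of these data known. Named genes are the members and, of each list, the 4 with the smallest p for any difference among the groups. Like genes were limited to mean log2 CPM of at least 2 and to symbols not beginning with LOC, RGD, MGC, Mir or Snor.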

Additional observations from a re-analysis of the deposited data

How the results depend on the processing

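With the replicate block, 2872 genes were called on fibronectin, 4333 on laminin and 3889 on uncoated dishes against suspension, 47 for fibronectin over no coating, 41 for fibronectin over laminin and 3190 for any difference. Of the 8 matrix genes the block called 1, 3 and 1 against suspension and 2 for any difference, and it changed no other member's call. Without batch 3 the matrix genes called were 2 on laminin and 1 for any difference, and 11 genes were called for fibronectin over no coating. DESeq2 called 53 for that comparison, 45 for fibronectin over laminin, 1671 for any difference, and 1 matrix gene for the last. A fit to only the groups compared called 461 genes on uncoated dishes against suspension, 11 for fibronectin over no coating and 9 for fibronectin over laminin.

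Leaving out each of the 12 libraries gave 412 to 1304 genes on fibronectin, 797 to 2488 on laminin and 537 to 1459 on uncoated dishes against suspension, 10 to 22 for fibronectin over no coating, 7 to 20 for fibronectin over laminin, 0 for laminin over no coating and 338 to 1086 for any difference. Against suspension, counts fell more than 1.5 times without suspension replicate 2 or 3 on every surface, without fibronectin replicate 1 or 3 on fibronectin, without laminin replicate 2 or 3 on laminin, and without no coating replicate 2 or 3 on uncoated dishes. Matrix genes called ran from 0 to 1 on laminin and from 0 to 1 for any difference, and were 0 in the other comparisons. Of the 12 fits, 9 kept the call of Fn1 on laminin and 3 lost it, and no other pairwise difference of a matrix gene gained a call. The fold change of Fn1 on laminin was below 0 under every setting run. The cause of these changes was not tested. Counting error at the lowest count was 8.39% for Postn and 0.361% to 1.46% for the others.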
